A study of Mus musculus with 24 samples.

Results

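Expression of 8 genes of the JAK-STAT pathway is described here in mouse bone marrow-derived macrophages: the kinase gene Jak2, the transcription factor genes Stat2, Stat3, Stat5a and Stat6, and the inhibitor genes Socs1, Socs3 and Cish. They were picked by gene symbol and are 8 of the 55401 genes in the count table and 8 of the 11717 genes with enough reads to test, so every one of them was tested. The cells were grown from the bone marrow of wild-type C57BL/6J mice and are primary cells, not a line. They were left untreated, given S14 at 30 µM, or given lipopolysaccharide (LPS) at 100 ng/mL, and were taken after 3 h or 18 h, with 4 libraries in each of the 6 groups. S14 is the sphingomyelin d18:1/14:0, a lipid of cell membranes, and LPS is a component of the outer membrane of Gram-negative bacteria that macrophages sense through TLR4. No group carries a genetic change, and each time has its own untreated cells. Nothing in the labels says whether the 4 libraries of a group are separate animals, so p-values measure the spread between these libraries, which may be technical.

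The cytokine receptors that use this pathway have no kinase of their own. Binding of a cytokine activates Janus kinases (JAKs) held on the receptor chains, these phosphorylate STAT proteins, and paired STATs enter the nucleus and switch on genes. STAT2 works with IRF9 in the response to type I interferon, STAT3 serves IL-6 and IL-10, STAT5 serves GM-CSF and IL-3, and STAT6 serves IL-4 and IL-13. The SOCS family, to which CIS (from Cish) belongs, closes the loop: its genes are induced by STATs and its proteins bind the JAKs or the receptor. In macrophages LPS reaches this pathway indirectly, through interferon and interleukins that the cells release. Only mRNA was measured, so nothing here reports on phosphorylation or protein.

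The promoters of 4 of the genes hold letters that match STAT binding motifs, and they are shown because the 3 inhibitors and Stat2 are themselves known as targets of the pathway. Windows of 250 bases before to 50 bases after the transcription start came from RefSeq on GRCm38.p6, in which all 8 genes matched and Stat5a has 2 windows. Both strands were searched for TTCNNNGAA, the GAS element bound by STAT pairs, and for 2 GAAA runs 2 bases apart, the core of the ISRE, an element of interferon-stimulated genes. For Stat2 and Socs3 the end of the window was not found in the gene's GENCODE transcripts in either direction. The Stat2 window ends at 128270547, before the GENCODE gene start at 128270559. The Socs3 window, 117969317 to 117969616, lies inside the GENCODE gene (117966079 to 117970047). The Cish window, 107296409 to 107296708, also lies inside its GENCODE gene (107296026 to 107302784), though its end was found in a transcript. Positions for Stat2, Socs3 and Cish thus hold for the RefSeq start alone. In the lines that follow, capitals mark the matches, each sequence reads 5′ to 3′ along the gene, and positions count from the RefSeq transcription start.
Cish, chr9:107296654-107296683, plus strand: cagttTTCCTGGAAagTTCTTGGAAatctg
Socs3, chr11:117969501-117969530, minus strand: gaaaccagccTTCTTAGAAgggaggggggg
Socs1, chr16:10785537-10785786, minus strand: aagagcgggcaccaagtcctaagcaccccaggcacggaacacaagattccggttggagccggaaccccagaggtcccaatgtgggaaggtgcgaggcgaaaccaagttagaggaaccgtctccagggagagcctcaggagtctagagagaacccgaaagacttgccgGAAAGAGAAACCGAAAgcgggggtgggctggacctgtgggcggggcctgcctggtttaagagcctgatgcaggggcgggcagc
Stat2, chr10:128270248-128270497, plus strand: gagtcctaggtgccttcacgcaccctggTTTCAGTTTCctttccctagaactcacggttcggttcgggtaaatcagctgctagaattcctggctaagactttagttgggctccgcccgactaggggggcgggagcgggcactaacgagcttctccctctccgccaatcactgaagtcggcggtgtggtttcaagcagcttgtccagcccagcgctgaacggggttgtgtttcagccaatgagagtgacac
Cish held 2 GAS matches, at 1 to 9 and at 12 to 20, and Socs3 held 1, at -154 to -146. Socs1 held 2 overlapping ISRE cores, at -83 to -74 and at -77 to -68, and Stat2 held 1 on the opposite strand, at -222 to -213. No GAS or ISRE match was found in the windows of Jak2, Stat3, Stat5a or Stat6, which says only that these letters are not in those windows. The GAS letters occur in 8.3% of the 32851 RefSeq windows of this length and the ISRE core in 3.44%, against 2 of the 9 member windows for each. A match in the letters is a description and no measurement of binding.

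The libraries held 3334182 to 6350251 reads in genes and detected 13405 to 15505 genes each. All 8 macrophage markers had reads in every group, with a summed level of 16039 to 45779 CPM per library (CPM is a gene's reads scaled to a common library total). Marker lists of other cell types stayed low, with neutrophil markers at up to 50.4 CPM in LPS-treated cells at 18 h, T cell markers at up to 17.3 CPM, fibroblast markers at up to 17.9 CPM and erythroid markers at 0 reads. In bulk RNA, fewer cells of a type and less RNA per cell cannot be told apart. One library stood apart: replicate 4 of the untreated cells at 18 h deviated from its group by an SD of 0.518 on the log2 scale, against 0.327 to 0.345 for the other 3, and had 0.0134% of its reads on spike-in RNAs against 0.0333% to 0.0418%. The 18 h results without it are given below. Levels are CPM of libraries scaled with edgeR's TMM method, which assumes that most genes do not change. The other scaling, to added spike-in RNA, is given beside those results of the 8 members whose call or direction it changes.

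At 3 h, S14 raised 7 of the 8 genes, and LPS raised the same number and lowered Stat6. A gene was called when its adjusted p was under 0.05, and at 3 h this held for 15.2% of all genes with S14 (9.05% higher, 6.2% lower) and for 55.5% with LPS (25.3% higher, 30.2% lower). The median log2 fold change of the 8 genes was 1.2 with S14, against -0.03 over all genes tested, and 4.09 with LPS, against -0.11. Untreated and treated libraries did not overlap for 7 members with S14, as for 20.8% of all genes, and for 8 with LPS, as for 51.5%. After 18 h the number called was 4 with S14 (Stat3, Jak2, Socs3 and Cish, all higher, of which spike-in scaling kept Socs3 and Cish), against 24.3% of all genes (12.6% higher, 11.6% lower), and 7 with LPS (6 higher, Stat5a lower), against 55.6% (27.3% higher, 28.3% lower). Libraries did not overlap at 18 h for 3 members with S14, against 23% of all genes, and for 7 with LPS, against 44.1%. By 18 h the median of the members stood at 0.46 for S14 and 1.95 for LPS, beside -0.02 and -0.04 over all genes. For LPS the background of called genes is so wide that a count of members alone sets them little apart. Both treatments are compared with the same untreated libraries at each time, so the values below are set side by side and were not tested for likeness.

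**Figure D1:**
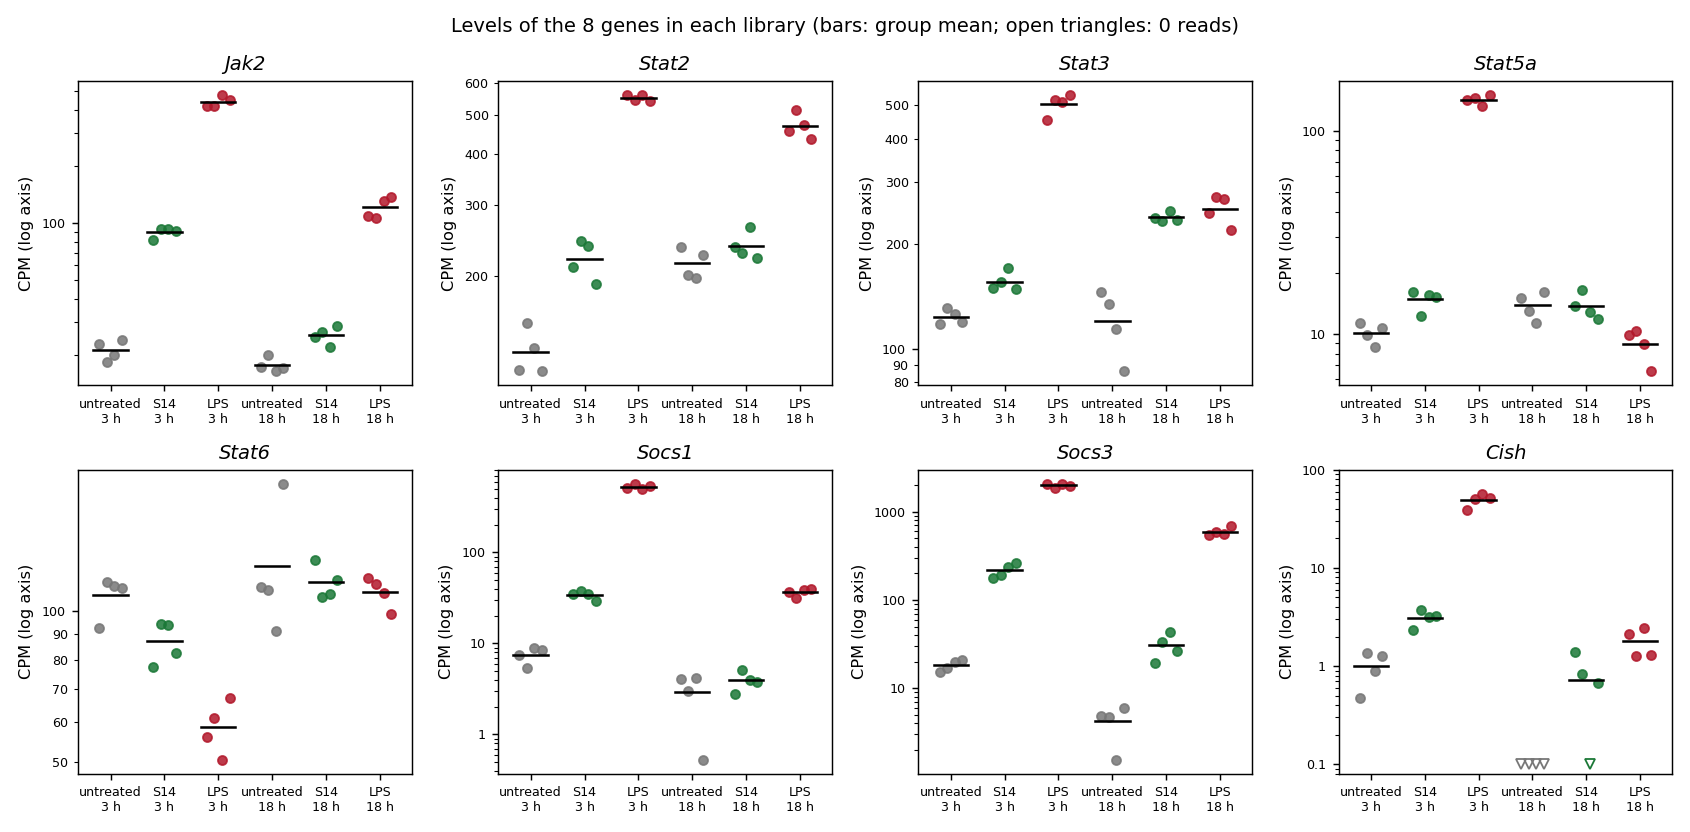
Level of each of the 8 genes in CPM (y axis, logarithmic) in the 24 libraries, in 6 groups (x axis). Points are libraries, bars are group means of 4 libraries and open triangles at the foot mark libraries with 0 reads. LPS at 3 h is the highest group for every gene but Stat6, for which it is the lowest.

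Jak2 encodes the kinase that serves the receptors of interferon-gamma, GM-CSF and IL-3. It lies on chromosome 19 (GRCm38 chr19:29251828-29313080, plus strand). Its level at 3 h was 23.1, 18.5, 20.0 and 24.3 CPM in untreated cells, 81.1, 93.4, 93.4 and 91.5 CPM with S14, and 420, 418, 479 and 448 CPM with LPS. After 18 h it stood at 17.4, 20.1, 16.5 and 17.2 CPM in untreated cells, 25.1, 26.6, 22.2 and 28.7 CPM with S14, and 110, 106, 132 and 138 CPM with LPS. Every treated library lay above every untreated library of its time. The mean was 4.19 times the untreated mean with S14 at 3 h and 20.6 times with LPS, log2 fold changes of 2.07 ± 0.11 (SE, n = 4 against 4, adjusted p = 6.91e-19) and 4.36 ± 0.11 (adjusted p = 2.15e-31). At 18 h the log2 fold changes were 0.53 ± 0.12 with S14 (adjusted p = 0.000803) and 2.77 ± 0.11 with LPS (adjusted p = 1.81e-24). The small S14 value at 18 h did not survive scaling to spike-in reads, which turned it to -0.41 (adjusted p = 0.256), or to 0.05 (adjusted p = 0.897) without the library that stood apart. From high to low, the group means ran LPS 3 h, LPS 18 h, S14 3 h, S14 18 h, untreated 3 h, untreated 18 h, and only the last 3 overlapped with their neighbours.

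Stat2 encodes the STAT that is dedicated to type I and type III interferons. It lies at chr10:128270559-128292849, plus strand. Its level at 3 h was 117, 153, 132 and 116 CPM in untreated cells, 210, 244, 237 and 191 CPM with S14, and 560, 545, 561 and 541 CPM with LPS. By 18 h untreated cells had risen to 235, 201, 198 and 226 CPM, beside 235, 227, 264 and 221 CPM with S14 and 457, 515, 473 and 436 CPM with LPS. The S14 libraries thus stood clear of the untreated ones at 3 h and overlapped them at 18 h, while the LPS libraries stood clear at both times. The log2 fold change with S14 was 0.76 ± 0.09 at 3 h (adjusted p = 7.27e-09) and 0.14 ± 0.09 at 18 h (adjusted p = 0.251), and with LPS 2.09 ± 0.09 (adjusted p = 2.53e-23) and 1.13 ± 0.09 (adjusted p = 9.5e-15). Untreated cells rose by 0.73 ± 0.09 between the times (adjusted p = 1.04e-08). Spike-in scaling ended the S14 call at 3 h (0.88, adjusted p = 0.143; 0.88, adjusted p = 0.00268 without the library that stood apart). At 18 h it put Stat2 at -0.89 with S14 (adjusted p = 0.0143; -0.31, adjusted p = 0.317 without that library) and ended the LPS call (0.42, adjusted p = 0.261; 1.00, adjusted p = 0.00038 without that library).

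Stat3 encodes the STAT through which IL-10 restrains macrophages and IL-6 acts. It lies at chr11:100885098-100939540, minus strand. Its level at 3 h was 118, 130, 126 and 119 CPM in untreated cells, 149, 155, 171 and 148 CPM with S14, and 454, 519, 509 and 535 CPM with LPS. The 18 h levels were 146, 135, 114 and 86.1 CPM in untreated cells, 238, 232, 248 and 234 CPM with S14, and 246, 273, 268 and 220 CPM with LPS. Among the 7 members with untreated reads at both times it was the one with a called rise of its S14 response from 3 h to 18 h under TMM scaling, and at 18 h the S14 and LPS libraries overlapped. The log2 fold change with S14 was 0.34 ± 0.10 at 3 h (adjusted p = 0.0171) and 0.99 ± 0.10 at 18 h (adjusted p = 2.68e-10), and with LPS 2.03 ± 0.10 (adjusted p = 4.39e-21) and 1.07 ± 0.10 (adjusted p = 2.91e-12). The difference between the S14 responses at the 2 times was 0.65 ± 0.14 (adjusted p = 0.000813), and 0.53 (adjusted p = 0.000553) without replicate 4 of the untreated cells at 18 h, the lowest of its group. Scaled to spike-in reads, the S14 values were 0.45 at 3 h (adjusted p = 0.893) and 0.12 at 18 h (adjusted p = 0.698), or 0.45 (adjusted p = 0.357) and 0.39 (adjusted p = 0.214) without that library, so neither S14 call was kept and the difference between times turned to -0.33, or to -0.06 without it. The LPS call at 18 h was also lost (0.51, adjusted p = 0.141), and was kept at 0.78 (adjusted p = 0.00753) without it. The 3 h call with S14 was further lost when replicate 1 (adjusted p = 0.0582) or 4 (adjusted p = 0.0526) of the untreated cells or replicate 3 of the S14 cells (adjusted p = 0.0811) was left out.

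Stat5a encodes one of the 2 STAT5 proteins, which act downstream of GM-CSF and IL-3. It lies at chr11:100859351-100885169, plus strand, and its 3' end overlaps the 3' end of Stat3 on the other strand by 72 bases; the labels do not say whether the authors' counting used strand, so reads from those bases cannot be told apart. The level at 3 h was 11.3, 9.91, 8.58 and 10.7 CPM in untreated cells, 16.0, 12.2, 15.6 and 15.3 CPM with S14, and 142, 145, 132 and 150 CPM with LPS. At the later time it was 15.1, 13.0, 11.3 and 16.1 CPM in untreated cells, 13.8, 16.5, 12.9 and 11.9 CPM with S14, and 9.84, 10.3, 8.95 and 6.55 CPM with LPS. LPS thus gave the highest level of the series at 3 h and the lowest at 18 h, a ratio of 16.0 between the 2 means, and at 18 h all 4 LPS libraries lay below all untreated ones. The log2 fold change with LPS was 3.81 ± 0.15 at 3 h (adjusted p = 6.61e-25) and -0.63 ± 0.17 at 18 h (adjusted p = 0.00132), a difference of -4.45 ± 0.22 (adjusted p = 1.52e-20). Spike-in scaling kept both directions, at 4.15 and -1.40, or -0.77 at 18 h without the library that stood apart. With S14 the value was 0.55 ± 0.17 at 3 h (adjusted p = 0.0176), a call that was lost without replicate 3 of the untreated cells (adjusted p = 0.0811) and under spike-in scaling (0.66, adjusted p = 0.661; 0.66, adjusted p = 0.189 without the library that stood apart). At 18 h it was -0.00 ± 0.16 (adjusted p = 0.995), and -1.04 (adjusted p = 0.0109) by spike-in reads, or -0.40 (adjusted p = 0.278) without that library.

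Stat6 encodes the STAT of IL-4 and IL-13, which drives the alternative state of macrophages. It lies at chr10:127642986-127660957, plus strand, and shares 40 bases with Nab2 on the other strand. The level at 3 h was 92.8, 115, 112 and 112 CPM in untreated cells, 77.3, 94.6, 93.8 and 82.7 CPM with S14, and 56.0, 61.3, 50.5 and 67.2 CPM with LPS. By 18 h the level was 112, 111, 91.3 and 180 CPM in untreated cells, 127, 107, 109 and 115 CPM with S14, and 117, 113, 109 and 98.7 CPM with LPS. It was the one member with LPS at 3 h as its lowest group, below every untreated and S14 library, and at 18 h the 3 groups overlapped. The log2 fold change with LPS at 3 h was -0.88 ± 0.14 (adjusted p = 1.99e-06), and by spike-in reads -0.53 (adjusted p = 0.278; -0.53, adjusted p = 0.0628 without the library that stood apart). S14 gave -0.31 ± 0.13 at 3 h (adjusted p = 0.135, 95% confidence interval -0.58 to -0.03), with overlapping libraries. At 18 h the values were -0.11 ± 0.13 with S14 (adjusted p = 0.609) and -0.17 ± 0.13 with LPS (adjusted p = 0.272), and they were 0.13 and 0.07 without replicate 4 of the untreated cells, the highest of its group. By spike-in reads with all libraries both were called, at -1.29 (adjusted p = 0.00286) and -1.05 (adjusted p = 0.0121), and without that library neither was, at -0.32 (adjusted p = 0.317) and -0.09 (adjusted p = 0.817). Nab2 had a mean of 28.4 CPM in untreated cells at 3 h, 44.1 CPM with S14 and 16.0 CPM with LPS; its part in the Stat6 counts was not tested.

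Socs1 encodes an inhibitor that binds JAKs and blocks their activity, above all in interferon signalling. It is a short gene at chr16:10782240-10785536, minus strand. Its level at 3 h was 7.53, 5.40, 8.80 and 8.43 CPM in untreated cells, 35.1, 37.9, 35.2 and 29.3 CPM with S14, and 506, 572, 502 and 538 CPM with LPS. At 18 h it was 4.06, 3.00, 4.19 and 0.525 CPM in untreated cells, 2.79, 5.15, 3.99 and 3.82 CPM with S14, and 36.8, 31.7, 38.7 and 39.5 CPM with LPS. The S14 response was seen at 3 h and not at 18 h, when S14 and untreated libraries overlapped, and LPS at 18 h gave about the level that S14 gave at 3 h. The mean rose 4.56 times with S14 at 3 h (2.18 ± 0.19 on the log2 scale, adjusted p = 1.19e-11) and 70.2 times with LPS (6.13 ± 0.17, adjusted p = 7.45e-27). At 18 h the log2 fold change was 0.39 ± 0.29 with S14 (adjusted p = 0.356) and 3.61 ± 0.20 with LPS (adjusted p = 1.84e-17). Without replicate 4 of the untreated cells, which held 3 reads, these were 0.07 and 3.28, and by spike-in reads -0.28 (adjusted p = 0.5) and 3.30. Untreated cells fell by 1.33 ± 0.26 between the times (adjusted p = 8.87e-05), and by 0.82 (adjusted p = 0.0561) when scaled to spike-in reads, or by 0.66 (adjusted p = 0.139) without that library.

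Socs3 encodes the inhibitor of the IL-6 and G-CSF receptors. It lies at chr11:117966079-117970047, minus strand. Its level at 3 h was 15.1, 17.1, 19.6 and 20.7 CPM in untreated cells, 178, 194, 235 and 262 CPM with S14, and 2054, 1872, 2091 and 1973 CPM with LPS. At 18 h it was 4.84, 4.74, 1.54 and 5.95 CPM in untreated cells, 19.5, 33.8, 43.0 and 26.5 CPM with S14, and 546, 595, 566 and 682 CPM with LPS. The 3 conditions did not overlap at either time. Of the S14 responses at 18 h, its was the largest among the 7 members with untreated reads: 2.88 ± 0.28 (adjusted p = 1.04e-07), a mean 7.19 times the untreated one, beside 7.16 ± 0.25 with LPS (adjusted p = 3.21e-16), a mean 140 times the untreated one. The S14 level itself was 7.08 times lower at 18 h than at 3 h. Untreated cells fell as well, by 2.12 ± 0.30 (adjusted p = 8.69e-06). Relative to the untreated cells of each time, the difference between times was not called, at -0.71 ± 0.38 for S14 (adjusted p = 0.235) and 0.38 ± 0.35 for LPS (adjusted p = 0.381). By spike-in reads the S14 difference was called, at -1.87 (adjusted p = 0.0107), or -1.12 (adjusted p = 0.0379) without the library that stood apart. Spike-in scaling kept the S14 calls at 3.72 at 3 h and 1.85 at 18 h (adjusted p = 0.000405), and at 18 h also without the library that stood apart (adjusted p = 7.29e-15).

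Cish encodes CIS, which is induced by STAT5 and dampens its signalling. It lies at chr9:107296026-107302784, plus strand. The pseudogene Gm17040 and the antisense transcript Gm17041 overlap it on the other strand and held 3 reads and 0 reads in all. Cish was the scarcest member, so reads are given: 2, 6, 4 and 5 in untreated cells at 3 h, 9, 16, 15 and 19 with S14, and 145, 181, 231 and 200 with LPS. At 18 h there were 0 reads in all 4 untreated libraries, 7, 4, 0 and 3 with S14 and 9, 5, 11 and 6 with LPS. In CPM the means at 3 h were 0.995 ± 0.406 in untreated cells (SD, n = 4), 3.12 ± 0.594 with S14 and 49.4 ± 7.20 with LPS, and the libraries of the 3 conditions did not overlap. The log2 fold change at 3 h was 1.63 ± 0.42 with S14 (adjusted p = 0.00469) and 5.60 ± 0.34 with LPS (adjusted p = 1.35e-17), and both calls were kept by spike-in reads. Against a floor of 3 counts over the untreated group at 18 h, the level was at least 6.03-fold higher with S14 (adjusted p = 0.000489) and at least 14.6-fold higher with LPS (adjusted p = 1.8e-07), and in untreated cells at least 8.05-fold higher at 3 h than at 18 h (adjusted p = 4.71e-05). One S14 library at 18 h had 0 reads, as the untreated libraries did. These bounds put the untreated group at its floor and take the other group's level as estimated, with no allowance for its own error: pooled over 4 libraries at 18 h, S14 gave 0.743 CPM (95% Poisson interval 0.406 to 1.25) and LPS 1.79 CPM (1.22 to 2.54). Floors and intervals cover counting alone, because without molecular identifiers several reads can come from 1 molecule.

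**Figure D2:**
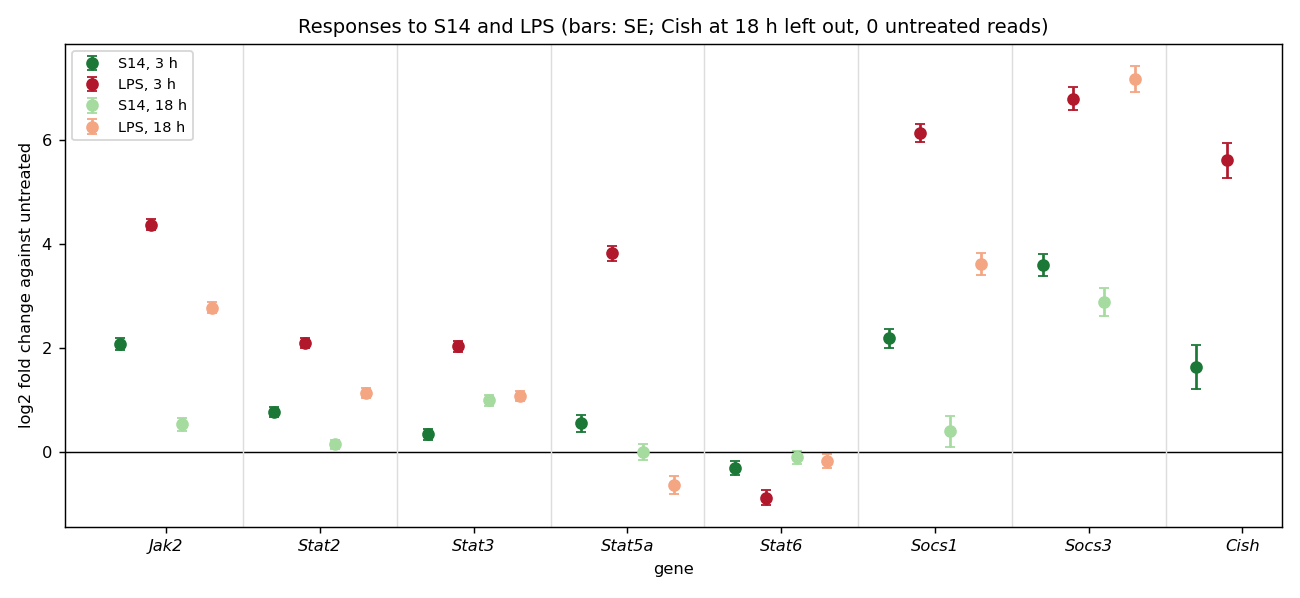
Log2 fold change against untreated cells of the same time (y axis) for the 8 genes (x axis), with S14 in green and LPS in red, 3 h dark and 18 h light. Points are the fitted values with their SE over 4 libraries a group, and Cish at 18 h is left out because its untreated libraries held 0 reads. Stat5a with LPS goes from 3.81 at 3 h to -0.63 at 18 h, and Stat3 with S14 from 0.34 to 0.99, or from 0.45 to 0.12 by spike-in reads.

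Set directly against each other at the same time, S14 and LPS differed at 3 h for all 8 genes, where 46.1% of all genes were called (23.7% higher with S14, 22.4% lower). The S14 level was lower for 7 of them and higher for Stat6, and the libraries overlapped for none, against 42.9% of all genes without overlap. The gap was widest for Cish, with an LPS mean 15.8 times the S14 mean (S14 minus LPS -3.97 ± 0.29 on the log2 scale), and for Socs1, at 15.4 times (-3.95 ± 0.14). It was 9.63 times for Stat5a (-3.26 ± 0.14), 9.19 times for Socs3 (-3.20 ± 0.18), 4.91 times for Jak2 (-2.29 ± 0.10), 3.24 times for Stat3 (-1.69 ± 0.10) and 2.50 times for Stat2 (-1.32 ± 0.09). Stat6 was 1.48 times higher with S14 (0.57 ± 0.14, adjusted p = 0.00107), a call lost by spike-in reads (0.34, adjusted p = 0.584; 0.34, adjusted p = 0.302 without the library that stood apart). S14 and LPS were each given at 1 dose, in different units, so these are differences between those doses.

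At 18 h S14 and LPS differed for 6 of the 8 genes, where 42.6% of all genes were called (21.3% in each direction), and 5 members had libraries without overlap, against 41.1% of all genes. LPS remained far above S14 for Socs3, at 19.5 times (-4.29 ± 0.20), for Socs1, at 9.32 times (-3.22 ± 0.20), and for Jak2, at 4.74 times (-2.24 ± 0.11). Stat2 was 1.98 times higher with LPS (-0.99 ± 0.09). Stat5a was the reverse, 1.54 times higher with S14 (0.63 ± 0.17, adjusted p = 0.00241), and spike-in reads ended that call (0.36, adjusted p = 0.532; 0.36, adjusted p = 0.343 without the library that stood apart). Cish was lower with S14 (-1.24 ± 0.49, adjusted p = 0.0365), with overlapping libraries, and the call was lost without replicate 2, 3 or 4 of S14 or replicate 1 or 3 of LPS (adjusted p from 0.0561 to 0.138), with no filter on low counts (adjusted p = 0.0644) and by spike-in reads (-1.48, adjusted p = 0.0565; -1.48, adjusted p = 0.0215 without the library that stood apart). Stat3 and Stat6 were not called: the difference was -0.08 ± 0.10 for Stat3 (adjusted p = 0.544, 95% confidence interval -0.28 to 0.12) and 0.07 ± 0.13 for Stat6 (adjusted p = 0.721), which bounds the differences and does not show that the treatments act alike.

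**Figure D3:**
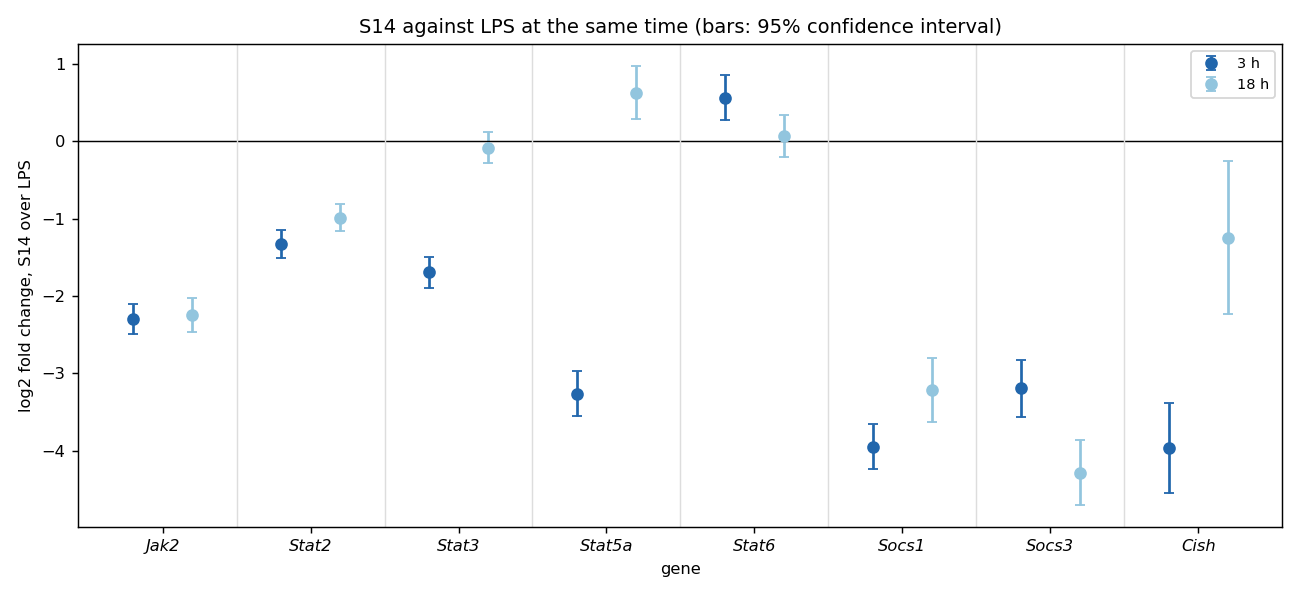
Log2 fold change of S14 over LPS (y axis) for each gene (x axis) at 3 h (dark) and 18 h (light), with 95% confidence intervals over 4 libraries a group. Values below 0 are lower with S14; at 18 h the intervals of Stat3 and Stat6 hold 0, and that of Stat5a lies above it.

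The responses of several members differed between 3 h and 18 h by a test of the difference itself, called for 5 members with S14 (16.6% of all genes; 7.61% with a higher response at 18 h, 8.98% with a lower one) and 6 with LPS (51.2%; 25.1% and 26.1%). For S14 the response was smaller at 18 h for Jak2 (-1.54 ± 0.16, adjusted p = 1.98e-09), Socs1 (-1.79 ± 0.35, adjusted p = 0.000325) and Stat2 (-0.62 ± 0.13, adjusted p = 0.000323). It was larger for Stat3, with the limits given above. Cish was called too (adjusted p = 0.0461), but its fitted value depends on the prior count because untreated cells held 0 reads at 18 h, and the call was lost in 13 of the 16 fits that left out 1 library of the 4 groups, with DESeq2 (adjusted p = 0.0711) and by spike-in reads (adjusted p = 0.0671). Spike-in reads also called Stat5a (-1.70, adjusted p = 0.0117; -1.06, adjusted p = 0.0615 without the library that stood apart), which TMM scaling did not (-0.55 ± 0.23, adjusted p = 0.0942). For LPS it was smaller for Stat5a, Socs1 (-2.52 ± 0.31), Jak2 (-1.59 ± 0.15), Stat2 (-0.96 ± 0.12) and Stat3 (-0.96 ± 0.14), and the Stat6 value was higher at 18 h than at 3 h (0.70 ± 0.19, adjusted p = 0.00241; by spike-in reads -0.52, adjusted p = 0.4, or 0.44, adjusted p = 0.339 without the library that stood apart). Levels under LPS were 27.7 times lower at 18 h than at 3 h for Cish, 16.0 times for Stat5a, 14.4 times for Socs1, 3.63 times for Jak2, 3.34 times for Socs3, 2.00 times for Stat3 and 1.17 times for Stat2, with no overlap between the times. Untreated cells moved too, with 5 members called between 3 h and 18 h (38.8% of all genes; 19.2% higher at 18 h, 19.6% lower), the same 5 whose libraries did not overlap (32.8% of all genes): Stat2 and Stat5a higher, the latter at 0.45 ± 0.16 (adjusted p = 0.0276; 0.36, adjusted p = 0.0971 without replicate 4 at 18 h), and Socs1, Socs3 and Cish lower. By spike-in reads Stat6 and Stat3 were called higher at 18 h as well (1.25, adjusted p = 0.00386, and 0.69, adjusted p = 0.0441), and without that replicate Stat6, Stat3 and Stat5a were not called (adjusted p = 0.456, 0.226 and 0.0821). The Stat5a call under TMM scaling was also lost without untreated replicate 2 or 3 at 3 h (adjusted p = 0.0592 and 0.106). Leaving out replicate 1 at 18 h (adjusted p = 0.0668), using no low-count filter (adjusted p = 0.0802) or fitting only the groups compared (adjusted p = 0.102) ended it too.

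The scaling sets how far the 18 h values can be read. Spike-in reads numbered 705 to 2588 per library. Scaling to them shifted the median of all genes at 3 h by 0.11 (S14) and 0.34 (LPS), and at 18 h by -0.97 and -0.64. Without replicate 4 of the untreated cells the 18 h shifts were -0.48 and -0.16. With S14 at 3 h, the members called went from 7 to 4 (Jak2, Socs1, Socs3 and Cish), and to 5 without that library. With S14 at 18 h, Socs3 and Cish stayed called as higher under both spike-in scalings, and Stat3 and Jak2 under neither. With LPS at 18 h the calls of Jak2, Socs1, Socs3 and Cish as higher and of Stat5a as lower were kept under both. How much spike-in RNA each sample received is not stated in the labels, and which scaling is nearer to the amount of mRNA per cell was not tested.

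**Figure D4:**
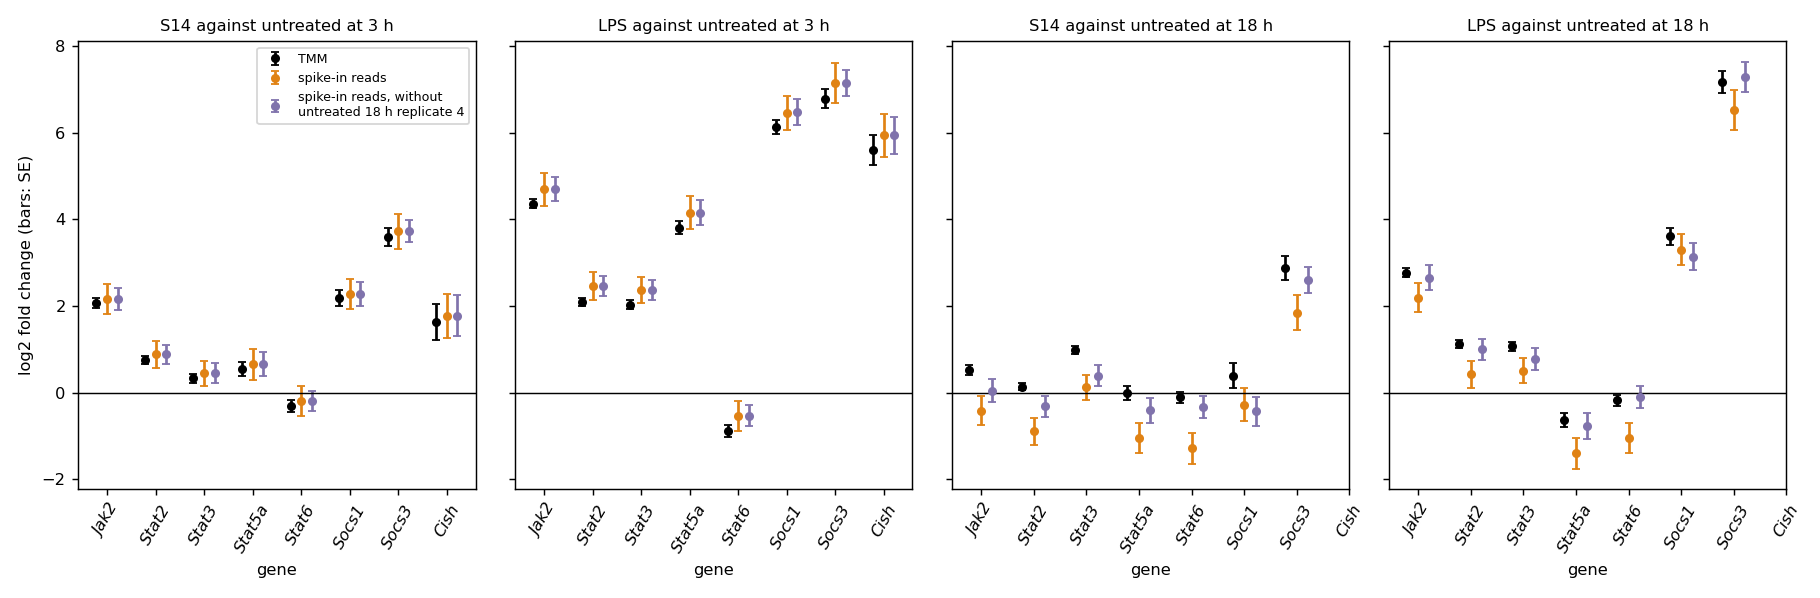
Log2 fold change against untreated cells (y axis, with SE) for the 8 genes (x axis) in 4 comparisons, under TMM scaling (black), scaling to spike-in reads (orange) and the same without replicate 4 of untreated cells at 18 h (purple). Cish at 18 h is left out because untreated libraries held 0 reads. In the panel of S14 at 18 h every orange point but those of Stat3 and Socs3 lies below 0, while in the 3 h panels no point changes side.

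Genes around the members were followed in lists written from textbook knowledge. Values of single genes in these lists, here and in the next paragraphs, are under TMM scaling alone. Spike-in scaling shifted the median of all genes at 18 h by -0.97 with S14 and -0.64 with LPS. Whether rises of about that size at 18 h are kept by it is not given for single list genes. Of the 11 other JAK, STAT and SOCS genes, 2 rose and 1 fell with S14 at 3 h (median log2 fold change -0.04, beside -0.03 over all genes), and 7 rose and 1 fell with LPS (0.87, beside -0.11). At 18 h, 1 rose and 3 fell with S14 (-0.11), and 4 rose and 1 fell with LPS (0.21). Tyk2, the JAK of the interferon receptor, rose at 3 h with S14 (0.63 ± 0.12) and LPS (1.38 ± 0.12). Stat5b, the second STAT5 gene, rose with LPS at 3 h (1.46 ± 0.16, adjusted p = 2.92e-10) and fell with S14 at 18 h (-0.44 ± 0.16, adjusted p = 0.0344). Jak3, which serves the common gamma chain, rose at 18 h with S14 (0.94 ± 0.27, adjusted p = 0.00712) and with LPS (1.43 ± 0.26), and Socs7 rose with LPS at 3 h (1.86 ± 0.15).

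Among 13 other inhibitors of the pathway, 3 rose and 1 fell with S14 at 3 h (median 0.05), 5 rose and 4 fell with LPS at 3 h (0.10), 2 rose and 3 fell with S14 at 18 h (0.12), and 5 rose and 3 fell with LPS at 18 h (0.26). Usp18, which blocks the interferon receptor, rose with S14 at 3 h (1.12 ± 0.11, adjusted p = 7.41e-11) and with LPS at 3 h (3.95 ± 0.11) and 18 h (1.94 ± 0.11). Cblb fell with S14 at 3 h (-0.61 ± 0.16, adjusted p = 0.00396), and Ptpn2 rose with LPS at 3 h (1.89 ± 0.16). Ptpn1, a phosphatase of JAK2 and TYK2, rose at 18 h with S14 (0.83 ± 0.10) and LPS (0.78 ± 0.10), and Ptpn6, which encodes SHP-1, rose at 18 h with S14 (0.63 ± 0.11). Of 25 receptor chains 21 were tested: 8 rose and 3 fell with S14 at 3 h (0.17), 11 and 4 with LPS (0.41), 8 and 5 with S14 at 18 h (0.01), and 12 and 6 with LPS (0.73). Il15ra rose with S14 at 3 h (1.66 ± 0.27) and with LPS (5.34 ± 0.22), and Csf3r, the G-CSF receptor, rose with S14 (1.21 ± 0.20) and LPS (2.67 ± 0.18). Il6ra, the IL-6 receptor, fell with S14 at 3 h (-0.87 ± 0.10) and with LPS (-1.74 ± 0.11), and Il2rg, the common gamma chain, rose at 18 h with S14 (1.03 ± 0.08) and LPS (1.48 ± 0.08).

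Of 21 cytokine ligands 9 had enough reads to test. With S14 at 3 h 6 of them rose and none fell (median 1.12), and at 18 h 1 rose and none fell (0.29, or 0.37 with genes at 0 reads put at their bound). With LPS 8 rose and none fell at each time (5.02 and 2.5). Il27, which signals through STAT3, rose from 2.21 ± 0.697 to 13.4 ± 3.97 CPM with S14 at 3 h (2.57 ± 0.32, adjusted p = 5.29e-07). With LPS at 3 h it reached 447 ± 34.3 CPM (7.64 ± 0.25). Its partner Ebi3 rose at 3 h with S14 (0.92 ± 0.10) and LPS (2.31 ± 0.10), and at 18 h with LPS (1.84 ± 0.10). Il6 held 1 read in untreated cells at 3 h, 157 with S14 and 4854 with LPS. The ratio for LPS was 5450, with a 95% counting interval of 979 to 216000. Il12b held 2 untreated reads at 3 h, 216 with S14, a ratio of 98.7 (27.0 to 820), and 1537 with LPS, a ratio of 864 (239 to 7140). Il4 and Il13, the ligands of STAT6, had 0 reads in all 24 libraries, and Ifng had 4.

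Known targets of each STAT gave different counts. Of 17 STAT2 targets, the interferon-stimulated genes, 15 rose with S14 at 3 h (median 1.35), 17 with LPS at 3 h (4.15), 11 with S14 at 18 h (0.50) and 17 with LPS at 18 h (1.75), and none was called as lower, except by spike-in reads with S14 at 18 h. Rsad2 rose from 757 ± 54.1 to 3226 ± 729.9 CPM with S14 at 3 h (2.09 ± 0.16) and to 44982 ± 973.4 CPM with LPS (5.89 ± 0.19), and Mx1 rose by 2.05 ± 0.18 and Ifit1 with LPS by 5.32 ± 0.33. At 18 h S14 cells had Irf7 higher by 1.02 ± 0.11 and Oasl1 by 1.07 ± 0.18. Of 6 STAT3 targets, 5 rose with S14 at each time (medians 0.63 at 3 h and 0.92 at 18 h) and 6 with LPS at each time (3.22 and 2.01). Il1rn, the IL-1 receptor antagonist, rose with S14 by 1.00 ± 0.19 at 3 h and 1.45 ± 0.20 at 18 h, and with LPS by 6.54 ± 0.22 at 18 h. Nfil3 rose with S14 at 18 h by 1.23 ± 0.20, Bcl3 with S14 at 3 h by 0.97 ± 0.14, and Il4ra, the receptor of IL-4, with LPS by 4.15 ± 0.13 at 3 h.

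Of 5 STAT5 targets, 1 rose and 1 fell with S14 at each time (medians 0.27 and 0.05), and 3 rose and 1 fell with LPS at each time (0.72 and 0.76). Pim1, a survival kinase, rose in all 4 comparisons (S14 1.38 ± 0.10 and 0.94 ± 0.10, LPS 3.02 ± 0.10 and 1.99 ± 0.10), and Ccnd1, the cell cycle gene of cyclin D1, fell in all 4 (S14 -1.32 ± 0.16 and -0.75 ± 0.16, LPS -1.72 ± 0.17 and -0.78 ± 0.16). Of 13 STAT6 targets 8 were tested, and 3 rose with S14 at 3 h (median 0.37) and 5 with LPS (1.62), none lower. At 18 h, 1 rose and 3 fell with S14 (-0.52), and 3 rose and 3 fell with LPS (0.30). The members of that list went separate ways: Tfec rose with S14 at 3 h (1.47 ± 0.12), the chemokine gene Ccl17 went from 0 to 208 reads with LPS at 3 h (at least 77.9-fold higher), Ccl22 from 4 to 688 reads, and Arg1, the arginase gene, from 0 to 640 reads with LPS at 18 h (at least 301-fold higher), while the lectin gene Clec10a fell at 18 h with S14 (-1.26 ± 0.14) and LPS (-5.82 ± 0.22) and Egr2 with S14 (-0.77 ± 0.26, adjusted p = 0.0306).

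By spike-in reads the counts of these lists with LPS at 3 h changed little, with 17 of 17 STAT2 targets and 6 of 6 STAT3 targets still higher. With S14 at 3 h, 10 STAT2 targets and 1 STAT3 target were still called higher (12 and 3 without the library that stood apart). With S14 at 18 h, 7 STAT2 targets were called lower and none higher, and 1 STAT3 target lower and none higher. Of all 11717 genes tested, 7533 were called lower there and 106 higher, with a median of -0.98, so these counts do not set the lists apart. Without that library 1 of each list was called higher and none lower, beside 133 higher and 2157 lower of 11905 genes. These gene lists were written with earlier results of these data known, so their counts are descriptions.

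**Figure D5:**
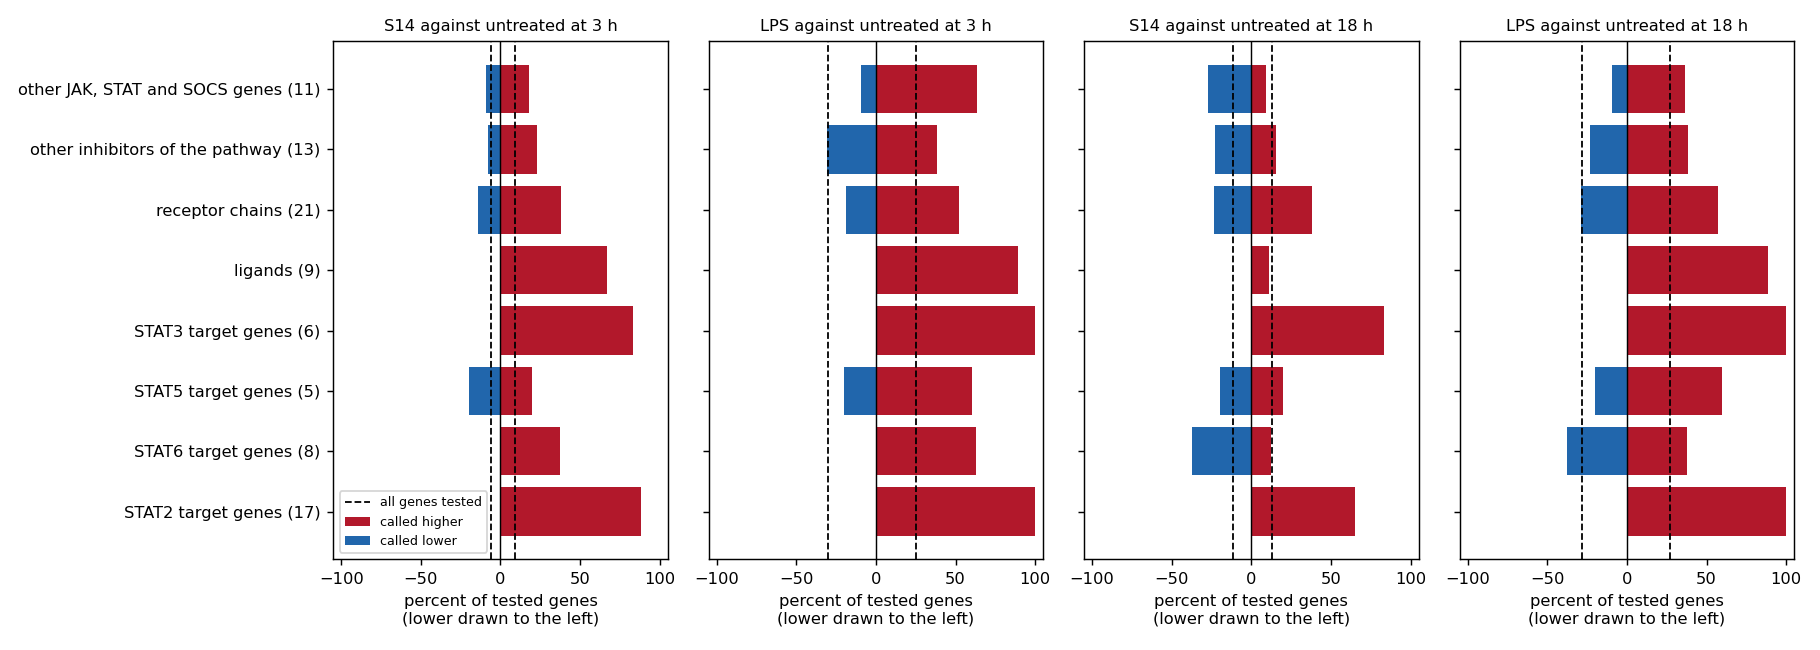
Share of each list's tested genes (number tested in brackets) called higher (red, to the right) or lower (blue, to the left) in 4 comparisons, in percent on the x axis, under TMM scaling. Dashed lines give the share of all 11717 genes tested. STAT2 and STAT3 targets have bars to the right only in all 4 panels. By spike-in reads those called with S14 at 18 h were lower, as were 7533 of all 11717 genes. Without replicate 4 of the untreated cells at 18 h, those called by spike-in reads were higher.

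The genes most like each member over the 24 libraries were found by Pearson's r of log2 CPM among 8701 genes, as a description with no test, since the points share libraries and groups. Those most like Jak2 were Il1a (r = 0.985), Helz2 (0.985) and Mx1 (0.984). Stat2 was most like Pik3ap1 (0.992), Isg20 (0.986) and Ifi204 (0.981), and Stat3 like Trafd1 (0.968), Nipa2 (0.96) and Trim25 (0.958). Stat5a, the member with the 3 h peak and the 18 h dip, was most like Ncoa7 (0.984), Aim2 (0.977) and Anxa7 (0.974). Stat6 was most like Arrdc1 (0.94), Nfic (0.937) and Tnrc6c (0.916). Among the inhibitors, Socs1 was most like Stx11 (0.981), Cemip2 (0.981) and Brd2 (0.979), Socs3 like Ccl7 (0.985), Ralgds (0.984) and Il1b (0.982), and Cish like Ccdc25 (0.977), Cemip2 (0.975) and Junb (0.973). Within the set, Jak2 tracked Socs1 (0.966) and Socs3 (0.961), while Stat6 ran against all the others, with r from -0.476 to -0.869.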

How the data were processed

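Polyadenylated RNA of 24 macrophage samples was read from its 3' end (QuantSeq FWD). The count table that the authors deposited holds whole reads per gene with no normalization, and its headers call the control cells Veh where the labels say untreated. The other table the authors deposited is a signal: reads over a size factor for each library. Whole reads were recovered from it within 8.6e-10, and it gave the reads of 114 spike-in entries. Reads of 7689 genes differ between the tables, those of the members by at most 0.114%. The submitters' processing notes name STAR 2.6.1a, featureCounts 1.6.4 of Subread, cutadapt 1.18, DESeq2, FastQC and GRCm38. Their order, the strand setting and the handling of reads with several matches are not stated there.

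The 7 ribosomal RNA entries (0.132% to 0.469% of reads) were set aside. Low genes were removed with filterByExpr (at least 10 counts, total 15, by group), libraries were scaled by TMM, and a robust quasi-likelihood fit of edgeR 4.0.16 gave each group 1 mean (24 libraries, 18 residual degrees of freedom). All adjusted p are from edgeR's quasi-likelihood F test with Benjamini-Hochberg adjustment over 11717 genes, and a gene was called under 0.05. SE is the size of the log2 change over the root of F. The script was tested on simulated data. Depth was 3334182 to 6350251 reads in genes. The smallest chi-square per degree of freedom between replicates was 2.68, so no 2 libraries were alike within sampling noise.

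The members, lists, tests and alternatives were chosen with earlier results of these data known. All 8 members are given in every comparison; of each list, the 2 called genes with the largest change at 10 CPM or more in each treatment comparison are named, at times with their values in other comparisons; and the 3 genes most like each member are named. Some items are not reported here. Ratios of means are descriptions. With 0 reads in a group, a bound against 3 counts over the group is given. Alternatives were DESeq2 1.42.0, other scalings and filters, only the groups compared, a replicate block and each library left out; the lists under spike-in scaling were added after the data were seen. Libraries with the same number deviated together weakly at most (r from -0.0255 to 0.143). In each comparison 2 or 3 of 4 libraries were still most like the one with their own number. The labels do not say what a number marks, and the main fit used no pairing. Positions are from GENCODE M21 on GRCm38 and promoters from RefSeq on GRCm38.p6.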

Additional observations from a re-analysis of the deposited data

Results flagged for a closer look

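In 2 of the 47 member-by-group sets of 4 libraries, 1 library lay far from the other 3, and chance flags about 1 set in 20. Stat6 was 92.8 CPM in replicate 1 of untreated cells at 3 h, against 111.6 to 114.6 CPM in the others. Jak2 was 81.1 CPM in replicate 1 of the S14 cells at 3 h, against 91.5 to 93.4 CPM.

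Responses that differed between 3 h and 18 h by the test of the difference were, for S14 (18 h minus 3 h, log2), -0.62 for Stat2, 0.65 for Stat3, -1.54 for Jak2 and -1.79 for Socs1, with Cish at an adjusted p of 0.0461. The fitted value of Cish is not given because untreated cells held 0 reads at 18 h, and its call was lost in 13 of the 16 fits that left out 1 library. For LPS they were -0.96 for Stat2, -0.96 for Stat3, -4.45 for Stat5a, 0.70 for Stat6, -1.59 for Jak2 and -2.52 for Socs1.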

How the results depend on the processing

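Of 1275 values under alternatives for the 72 member results, 1198 kept their side of the threshold, and their direction where either fit called them. This total pools many fits that differ by 1 library. Spike-in scaling alone reversed 5 of its values, gave a call to 6 and ended the call of 12. Without replicate 4 of untreated cells at 18 h it reversed 1, gave a call to 1 and ended the call of 11. A value called in neither fit counts as kept whichever its direction, as for Socs1 with S14 at 18 h (0.39, and -0.28 by spike-in reads). Spike-in scaling left 4 members called for S14 at 3 h, and without replicate 4 of untreated cells at 18 h it left 2 for S14 at 18 h and 3 for untreated cells over time, as did fitting only the groups compared. It reversed S14 at 18 h for Stat2 (-0.89) and Jak2 (-0.41), untreated cells over time for Stat3 (0.69), the time difference with S14 for Stat3 (-0.33, or -0.056 without that library) and with LPS for Stat6 (-0.52); the cause was not tested. Counts of all genes called went from 1786 to 374 (S14, 3 h; 798 without that library), 6500 to 3296 (LPS, 3 h), 2844 to 7639 (S14, 18 h), 5399 to 2232 (S14 against LPS, 3 h; 3499), 4996 to 1915 (18 h) and 1944 to 4115 (S14 over time); without that library also from 6517 to 4018 (LPS, 18 h) and 4547 to 2422 (untreated over time). The share called higher moved from 59.4% to 92.5%, 45.6% to 71.0%, 52.0% to 1.39% and 49.1% to 13.3% (S14 and LPS at 3 h, then 18 h). With single libraries left out, members called ranged from 6 to 7 (S14, 3 h), 8 to 8 (LPS, 3 h), 4 to 4 (S14, 18 h), 7 to 8 (LPS, 18 h), 8 to 8 and 5 to 6 (S14 against LPS), 4 to 6 (untreated over time), 4 to 5 and 6 to 6 (time differences of S14 and LPS). Calls gained this way were Stat6 with LPS at 18 h (adjusted p = 0.0447) and Socs3 in the S14 time difference (adjusted p = 0.0296), both without replicate 3 of untreated cells at 18 h, Stat6 in that difference (0.44, adjusted p = 0.0172) without replicate 4, and over time in untreated cells Jak2 without replicate 2 at 3 h (adjusted p = 0.0442) or 18 h (adjusted p = 0.0456) and Stat6 without replicate 3 at 18 h (adjusted p = 0.0464). Stat6 with S14 at 3 h was called with no filter (adjusted p = 0.0412) and with only the groups compared (-0.30, adjusted p = 0.00781), where Cish failed the filter at 18 h. A replicate block, which allows for libraries sharing a number, ended the Cish time difference with S14 (adjusted p = 0.0521) and no other member's call. It raised the count of all genes called in every comparison, as from 1786 to 1863 with S14 at 3 h. Depth limits Cish, at 0 to 19 reads outside LPS at 3 h.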
